A study of Rattus norvegicus with 6 samples.

Results

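The S100 genes encode small proteins of the EF-hand family, which bind calcium through a helix-loop-helix fold and change shape when they do. The members examined are S100a1, S100a4, S100a6, S100a10, S100a11, S100a13, S100a16 and S100b, which were picked by gene symbol. All 8 symbols were found among 17954 genes in the count tables, and all 8 passed the low-count filter that left 13052 genes for testing. Another 8 S100 genes were in the tables and are described after the members.

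S100 proteins mostly act as dimers that grip a target protein once calcium has opened a binding surface, and S100a10 is the known exception that holds its targets without calcium. In cartilage, S100a1 and S100b are known as chondrocyte proteins and have been described as targets of the SOX factors that drive cartilage formation. S100a4 and S100a6 are known from migrating and proliferating mesenchymal cells and from fibroblasts, while S100a10 and S100a11 are known as partners of annexins at membranes.

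The study compared 2 ways of growing rat mandibular condylar chondrocytes, which are cells from the cartilage of the lower jaw's joint head. The 3 libraries of 2D culture came from cells kept flat in DMEM with 20% fetal bovine serum and antibiotics, and the 3 organoid libraries from condylar cartilage organoids kept in a chondrogenic medium of unstated make-up. Both were held at 37 °C with 5% CO2, so the effects of culture form, of medium and of serum cannot be told apart. The labels used here name no strain, age or number of animals, and do not say that replicates are separate cultures. The p-values therefore rest on the spread among these libraries, and part or all of it could be technical.

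Libraries held 18592574 to 26472447 estimated counts. Levels are CPM (a gene's counts as a part of all counts, after TMM scaling, which corrects for the few genes that take up many counts), with mean ± SD over 3 libraries, and a log2 fold change sets organoids against 2D culture and carries its SE. A gene is called where its adjusted p is under 0.05 in edgeR's quasi-likelihood test over all genes tested. Organoid libraries differed more from each other than 2D libraries did, with a median SD of log2 CPM of 0.689 against 0.137. The labelled cell type was checked on 14 cartilage markers. In 2D culture the collagen genes Col2a1 (4.01 ± 1.01 CPM), Col9a1 (0.164 ± 0.204) and Col11a2 (0.306 ± 0.242) were low and Cnmd had 0 counts, while Acan stood at 1460 ± 50.2 and Col11a1 at 1229 ± 43.7. In organoids each of the 14 was detected in at least 1 library, and 11 of the 12 tested were called higher, all but Acan.

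Of the 8 S100 genes, S100b and S100a1 rose in organoids, S100a4 and S100a6 fell, and S100a10, S100a11, S100a13 and S100a16 did not pass. That makes 4 of 8 members called, where 27.5% of all genes tested were called, 14.9% higher and 12.6% lower. With 8 genes these counts do not set the members apart from that background. The members' median log2 fold change was -0.16, against -0.03 over all genes tested. The organoid and 2D values did not overlap in 5 of 8 members, with 2 above and 3 below, where 53.5% of all genes did not overlap, 23.4% above and 30.2% below. Scaling by total library size instead of TMM moved the median over all genes to -0.65, and 23.1% of called genes were then higher, against 54.1%.

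**Figure D1:**
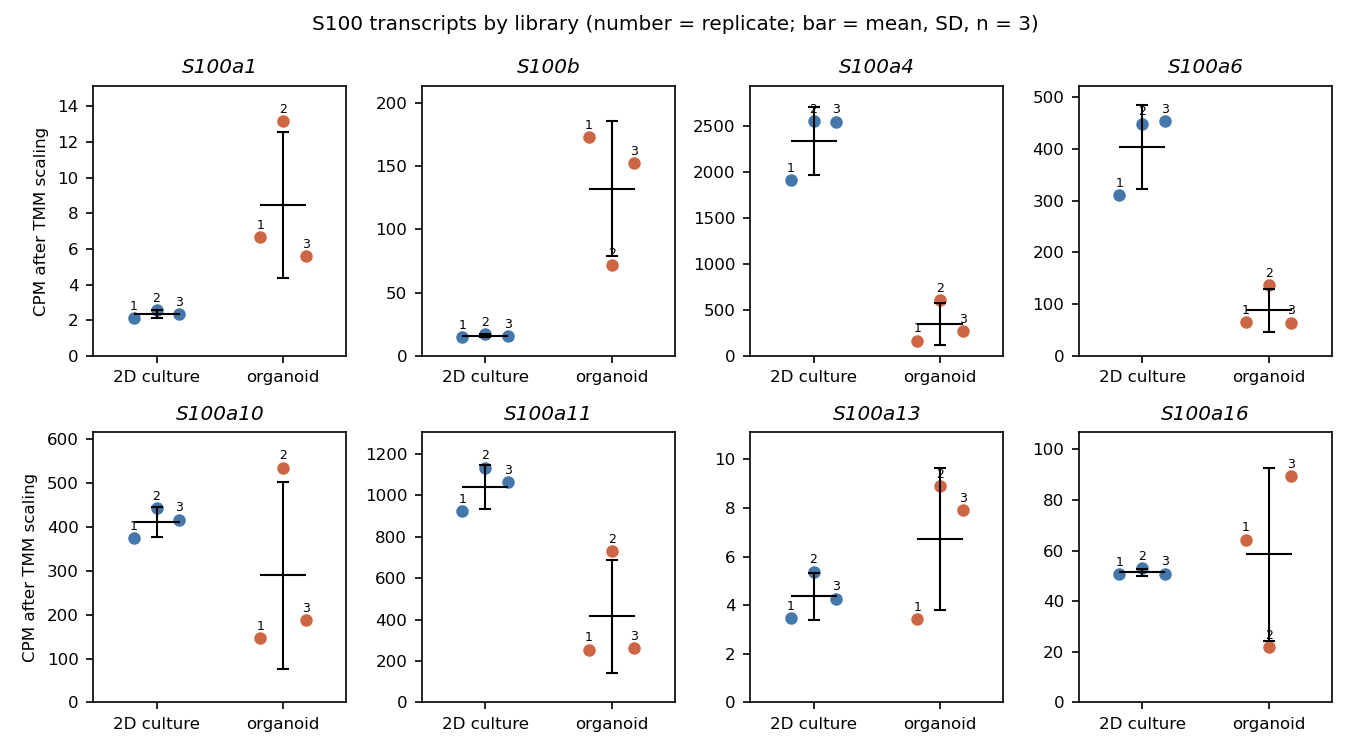
CPM after TMM scaling (vertical axis, each panel from 0 on its own scale) of each S100 gene in the 3 libraries of 2D culture (blue) and the 3 organoid libraries (orange), numbered by replicate, with mean and SD. S100b and S100a1 lie higher in every organoid library than in any 2D library, S100a4, S100a6 and S100a11 lie lower, and organoid 2 lies above the 2D range for S100a10.

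S100b (gene ID 25742), a chondrocyte and glial S100 protein, showed the largest rise among the members. It stood at 14.9, 17.4 and 15.6 CPM in 2D culture 1, 2 and 3, and at 173, 71.7 and 152 CPM in organoid 1, 2 and 3. Every organoid lay above every 2D library, and organoid 2 was the lowest of the organoids. The mean went from 15.9 ± 1.28 to 132 ± 53.4 CPM, a fitted 8.29-fold rise (log2 fold change 3.05 ± 0.37, edgeR adjusted p = 0.00243). S100b was called under all 14 alternative settings tried, with log2 fold changes of 2.39 to 3.40. In the RefSeq table of assembly GRCr8, S100b overlaps Dip2a, and because the strand setting of the counting is not given, reads in the overlap cannot be assigned with certainty. Dip2a itself was at 23.6 ± 2.22 CPM in 2D culture and 26.8 ± 20.6 in organoids, a difference of 0.18 ± 0.52 (edgeR adjusted p = 0.827). Prmt2, the gene on the other side of S100b, did not pass either (-0.93 ± 0.50, adjusted p = 0.21).

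S100b is also a marker of glia, melanocytes and fat cells, so the markers of those cells stand here beside it. The 10 Schwann and glial markers summed to 11.8 to 15.8 CPM in 2D libraries and to 1.29 to 3.59 in organoids. Most of the 2D sum is Ngfr, at 11.2 ± 1.82 CPM in 2D culture and 1.54 ± 1.54 in organoids, which did not pass (edgeR adjusted p = 0.134). Sox10, Foxd3, Gfap and Mag had 0 counts in organoids and at most 10 counts in any 2D library. Of the list, 3 genes could be tested and 0 were called. The 5 melanocyte markers in the tables summed to 8.13 to 10.1 CPM in 2D culture and 3.60 to 17.7 CPM in organoids. Mitf and Pmel make up most of these sums. Mitf was at 5.74 ± 0.241 CPM in 2D culture and 14.7, 3.55 and 1.99 CPM in organoid 1, 2 and 3. Pmel was at 2.96 ± 0.903 CPM in 2D culture and 2.42, 3.73 and 0 CPM in organoid 1, 2 and 3. Neither passed (edgeR adjusted p = 0.852 and 0.807). Dct had 0 counts in every library, and Tyrp1 had 0 in organoids and at most 8 in 2D culture. The 6 adipocyte markers summed to at most 2.42 CPM in 2D culture and to at least 5.82 CPM in organoids. Most of the organoid sum is Fabp4, which rose from 0.318 ± 0.0733 to 7.81 ± 2.87 CPM. Pparg was lower in every organoid, with 1.70 ± 0.459 CPM in 2D culture and 0.216 ± 0.374 in organoids, but missed the threshold (-2.97 ± 1.58, edgeR adjusted p = 0.205). Lep had 0 counts in every library and Adipoq was at 0.295 ± 0.51 CPM in organoids. The part of glia, melanocytes and fat cells in the S100b level was not tested. In bulk RNA, a change in the number of cells that make a transcript and a change in the amount per cell cannot be told apart.

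S100a1 (gene ID 295214), best known as a regulator of calcium handling in muscle and also made by chondrocytes, rose from a low level. It had 69, 84 and 76 counts in 2D culture 1, 2 and 3 and 113, 219 and 118 counts in organoid 1, 2 and 3. On the CPM scale these were 2.11, 2.57 and 2.35 against 6.66, 13.2 and 5.58, so the groups did not overlap and organoid 2 was the highest. The fitted rise was 3.60-fold (1.85 ± 0.54, edgeR adjusted p = 0.0442), close to the threshold. The call was lost without 2D culture 1, 2 and 3 (adjusted p = 0.178, 0.157 and 0.177) and under scaling by total library size (1.27, adjusted p = 0.145). It was also lost with no low-count filter (adjusted p = 0.0635) and with the replicate number as a block (adjusted p = 0.14). The log2 fold change stayed above 0 under all 14 settings. Chtop, the nearest gene outside the S100 family on one side, did not pass (-0.37 ± 0.19, adjusted p = 0.188).

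The SOX genes linked to S100a1 and S100b were all higher in organoids. Sox6, which works with Sox5 as a partner of Sox9, stood at 13.1, 14.3 and 12.8 CPM in 2D culture and 253, 255 and 191 CPM in organoid 1, 2 and 3 (4.12 ± 0.23, edgeR adjusted p = 0.000197). Sox5 went from 6.77, 5.07 and 6.84 CPM to 29.1, 17.4 and 27.6 CPM (1.99 ± 0.34, adjusted p = 0.00772), and just missed the threshold without 2D culture 1, 2 and 3 (adjusted p = 0.0508, 0.0534 and 0.0504). Sox9 went from 53.7 ± 2.09 CPM to 1420, 716 and 942 CPM in organoid 1, 2 and 3 (4.26 ± 0.33, adjusted p = 0.000601). S100b had the same order of the organoids, with organoid 2 lowest and organoid 1 highest. S100a1 had the order of Sox6, with organoid 2 highest and organoid 3 lowest, but Sox6 was nearly level between organoid 1 and organoid 2. In Sox5 and Sox9 organoid 2 was the lowest organoid. With 3 organoids these orders are a description only.

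S100a4 (gene ID 24615), a protein that binds non-muscle myosin and is known from cell movement, fell the furthest. It was at 1911, 2549 and 2544 CPM in 2D culture 1, 2 and 3, and at 164.5, 604 and 272 CPM in organoid 1, 2 and 3. The highest organoid lay far below the lowest 2D library. The fitted level was 6.73-fold lower in organoids (-2.75 ± 0.51, edgeR adjusted p = 0.0105), and it was called under all 14 settings. Its adjusted p came nearest to the threshold without 2D culture 3 (0.0485), and without organoid 2 the log2 fold change was -3.37.

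S100a6 (gene ID 85247), also called calcyclin and known from dividing fibroblasts, fell alongside it. Its levels were 310, 448 and 453 CPM in 2D culture 1, 2 and 3 and 64.9, 136 and 64.2 CPM in organoid 1, 2 and 3. Here too no organoid reached the 2D range, and organoid 2 was the highest organoid. The fitted level was 4.57-fold lower (-2.19 ± 0.37, edgeR adjusted p = 0.00798), and the call held under all 14 settings (log2 fold changes of -2.77 to -2.00). Both genes were lower in 2D culture 1 than in the other 2D libraries.

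S100a4 is also known as a fibroblast marker, so fibroblast markers are given beside it. Of 7 tested, Col1a1 and Postn rose, Thy1 fell from 1410 to 228 CPM (-2.63, edgeR adjusted p = 0.00765) and 4 did not pass. Postn lost its call without 2D culture 1, 2 and 3 (adjusted p = 0.0881, 0.0946 and 0.0913). Summed, the list stood at 33518 to 43720 CPM in 2D culture and 227065 to 407146 CPM in organoids, and most of that sum is Col1a1, at a mean of 31906 and 295077 CPM. Col3a1, the next most abundant marker, averaged 6508 CPM in 2D culture and 4138 CPM in organoids, a difference that did not pass (adjusted p = 0.252). The part of fibroblasts in the S100a4 and S100a6 levels was not tested.

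The promoters of the 3 members called under every setting are shown because these genes moved in opposite directions. The sequences are from RefSeq (GRCr8), whose promoter table held 6 of the 8 members. Each is the 250 bases before the annotated start, 5′ to 3′ on the gene's strand, with matches to the searched motifs in capitals. S100b lies at chr20:12381082-12381331 on the minus strand, and S100a4 at chr2:178388279-178388528 and S100a6 at chr2:178398287-178398536 lie on the plus strand.
S100b: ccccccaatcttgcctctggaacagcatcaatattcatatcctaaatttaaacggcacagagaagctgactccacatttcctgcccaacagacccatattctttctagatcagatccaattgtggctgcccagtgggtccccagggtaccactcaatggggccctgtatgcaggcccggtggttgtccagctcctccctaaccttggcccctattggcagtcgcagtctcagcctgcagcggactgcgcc
S100a4: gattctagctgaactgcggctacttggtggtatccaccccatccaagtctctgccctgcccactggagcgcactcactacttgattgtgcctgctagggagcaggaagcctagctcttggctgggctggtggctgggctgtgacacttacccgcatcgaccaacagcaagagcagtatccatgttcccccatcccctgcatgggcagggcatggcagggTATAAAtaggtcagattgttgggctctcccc
S100a6: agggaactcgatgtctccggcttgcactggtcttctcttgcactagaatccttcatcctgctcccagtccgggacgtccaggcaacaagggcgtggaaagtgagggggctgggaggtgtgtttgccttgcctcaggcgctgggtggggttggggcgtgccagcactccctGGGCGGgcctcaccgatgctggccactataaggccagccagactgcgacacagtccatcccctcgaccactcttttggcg
A set of 6 motifs was searched on both strands, and windows with a match were counted among 33465 promoters of the same length.
The capitals in S100a4 mark a TATA box (TATAAA), whose first base is 31 bases before the start, and 12.9% of all windows hold these letters. The capitals in S100a6 mark a GC box (GGGCGG), whose first base is 80 bases before the start, and 30.5% of windows hold one.
The other motifs were the SOX motif of 7 letters (2 letters that are each A or T, then CAA, then A or T, then G, in 22.4% of windows), the hypoxia core (ACGTG, 16.6%), the AP-1 site (TGACTCA or TGAGTCA, 4.05%) and the TEAD site (GGAATG, 12.1%).
None of these 4 was in the 3 windows, and S100b held no match to any of the motifs, which says only that these letters are not in these windows.

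**Figure D2:**
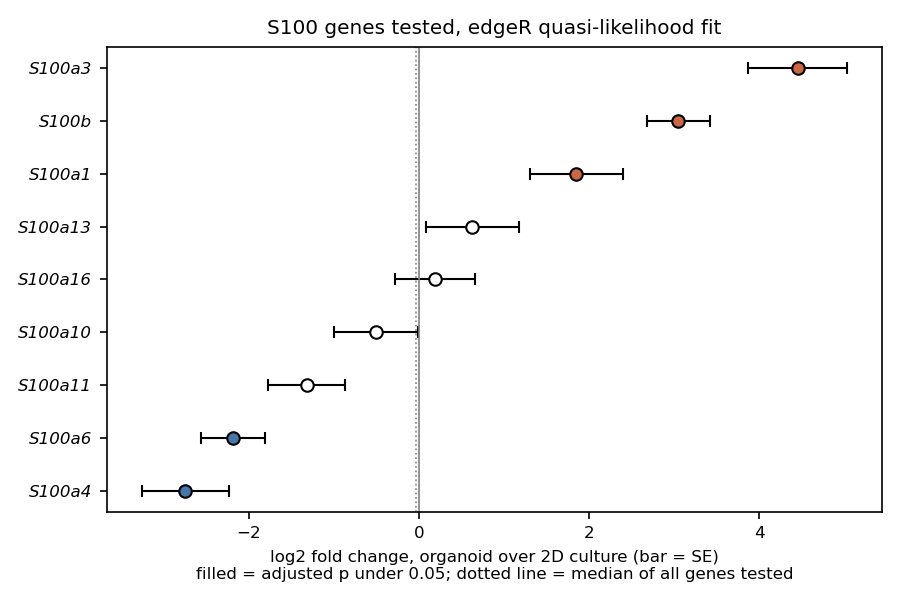
Log2 fold change of organoid over 2D culture (horizontal axis) with its SE for the 8 members and S100a3, with filled symbols for adjusted p under 0.05 and a dotted line at the median of all genes tested. The values run from -2.75 for S100a4 to 4.45 for S100a3, and 4 of the members (open symbols) did not pass.

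S100a10 and S100a11 did not pass in the fit of all libraries, and organoid 2 lay above the other organoids in both. S100a10 (gene ID 81778), which forms a complex with annexin A2 at the plasma membrane, stood at 375, 444 and 417 CPM in 2D culture 1, 2 and 3 and at 146, 535 and 188 CPM in organoid 1, 2 and 3. Organoid 2 was the highest of all 6 libraries, while organoid 1 and organoid 3 lay below every 2D library. The difference did not pass (-0.51 ± 0.49, edgeR adjusted p = 0.481), and without organoid 2 it did (-1.25, adjusted p = 0.00417).

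S100a11 (gene ID 445415), a partner of annexin A1, was at 924, 1134 and 1065 CPM in 2D culture 1, 2 and 3 and at 255, 732 and 261 CPM in organoid 1, 2 and 3. The groups did not overlap, and the test gave -1.32 ± 0.45 (edgeR adjusted p = 0.0721). Leaving out organoid 2 brought it past the threshold (-1.96, adjusted p = 0.000805), as did total library size (-1.88, adjusted p = 0.0278), DESeq2 (adjusted p = 0.0121) and limma-voom (adjusted p = 0.0292). Its estimated counts were fractional in all 6 libraries, as they are where reads map to more than 1 gene, and the RefSeq table lists S100a11-like genes and pseudogenes, so its values are uncertain.

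S100a13 (gene ID 295213), which takes part in the release of Fgf1 and interleukin 1 alpha from stressed cells, was at 3.46, 5.38 and 4.27 CPM in 2D culture and 3.42, 8.89 and 7.90 CPM in organoid 1, 2 and 3. The groups overlapped through organoid 1, and the difference did not pass (0.62 ± 0.55, edgeR adjusted p = 0.433). S100a16 (gene ID 361991), a widely expressed member, was nearly level across the 2D libraries at 50.5, 53.1 and 50.9 CPM and ranged over 64.3, 21.8 and 89.5 CPM in organoid 1, 2 and 3. Organoid 2 lay below and the other organoids above the 2D range, so the mean hardly differed (0.18 ± 0.47, edgeR adjusted p = 0.803). Without organoid 2 the gene passed (0.63, adjusted p = 0.0381), and its direction changed between settings, with 9 of 14 above 0.

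Organoid 2 was the highest organoid in 6 of the 8 members and the lowest in the other 2, S100a16 and S100b. Over all genes tested it was the highest in 37.6% and the lowest in 38.3%. The highest organoid exceeded the lowest by 2.12 times (S100a6) to 4.11 times (S100a16), against 1.05 times (S100a16) to 1.55 times (S100a13) between 2D libraries. With organoid 2 left out, 3 members were called higher and 4 lower, and leaving out 2D culture 1, 2 or 3 gave 1 higher and 2 lower each time. Calls over all genes moved the same way, from 3594 of 13052 genes tested to 5321 of 13421 without organoid 2. They also rose without organoid 1 (4589 of 13403) and organoid 3 (4783 of 13477), so the rise is not particular to organoid 2. Without 2D culture 1, 2 and 3 they fell to 1114 of 13395, 1211 of 13366 and 1109 of 13393.

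**Figure D3:**
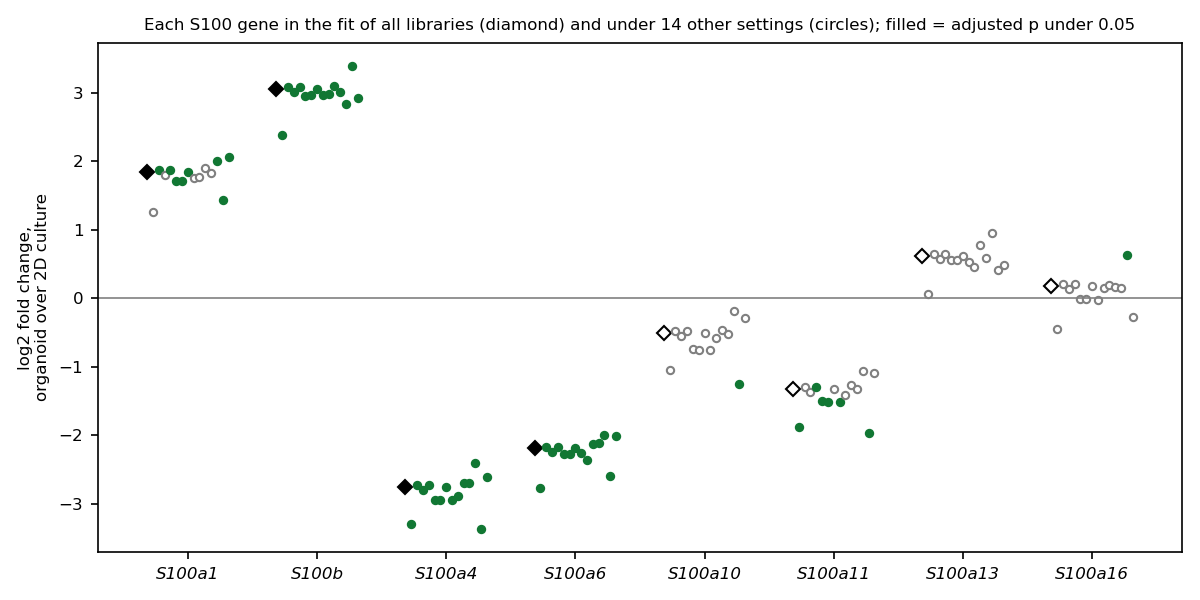
Log2 fold change (vertical axis) of each S100 gene in the fit of all libraries (diamond) and under 14 alternative settings (circles, in the order total library size, other scalings, filters and tools, then each library left out), filled where adjusted p is under 0.05. S100b, S100a4 and S100a6 are filled throughout, S100a13 is open throughout, and S100a16 falls on both sides of 0.

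Summed over the 8 members, S100 transcripts took a smaller part of the organoid libraries. They held 0.443, 0.589 and 0.560% of all counts in 2D culture 1, 2 and 3, against 0.0581, 0.190 and 0.0912% in organoid 1, 2 and 3. After TMM scaling the sums were 3592 to 4653 CPM and 878 to 2124 CPM, which do not overlap. S100a4 and S100a11 made up most of the S100 counts in 2D culture, so the sum largely follows these members.

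The make-up of the S100 counts differed as well. These are shares of reads and not of molecules, since longer transcripts give more reads. S100a4 held 53.2, 54.8 and 55.9% of them in 2D culture 1, 2 and 3, against 18.7, 28.5 and 26.2% in organoid 1, 2 and 3 (54.6 ± 1.35% and 24.4 ± 5.08%). S100b held 0.415, 0.373 and 0.342% in 2D culture and 19.7, 3.38 and 14.6% in organoids, with organoid 2 far below the others. The share of S100a10 was 9.71 ± 0.667% in 2D culture and 20.0 ± 4.59% in organoids, with no overlap between the groups. Its CPM values did overlap and averaged lower in organoids, at 412 ± 34.3 in 2D culture and 290 ± 214 in organoids. A share also depends on the levels of the other members. The 2-sided exact permutation test gave p = 0.1 for the shares of S100a1, S100a4, S100a6, S100a10, S100a13 and S100b, 0.2 for S100a11 and 0.4 for S100a16. The smallest p that 3 against 3 libraries allow is 0.1, so none of the 8 shares could pass.

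**Figure D4:**
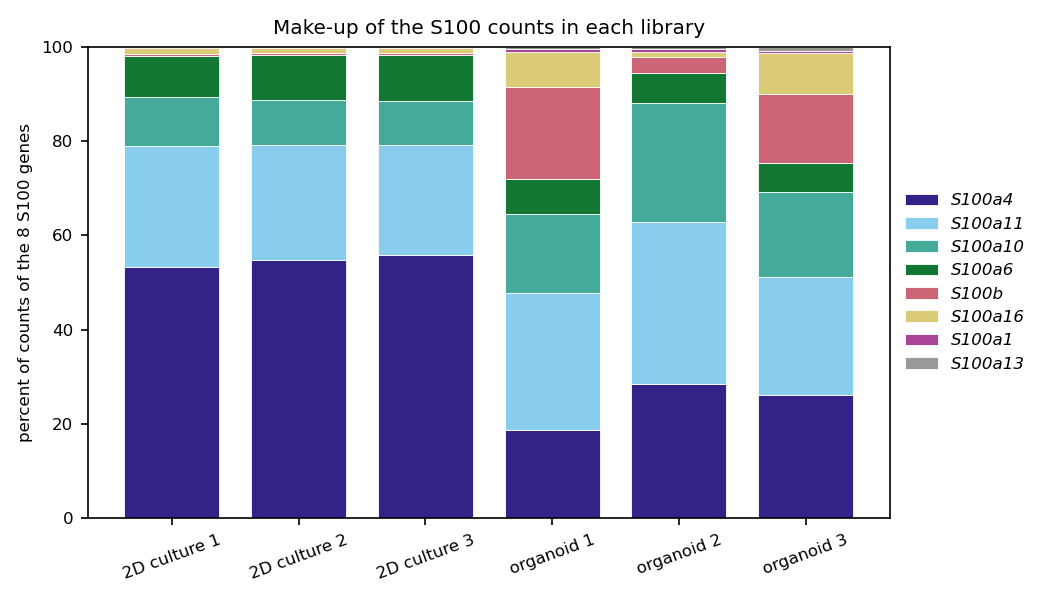
Percent of the counts of the 8 S100 genes (vertical axis) held by each gene in each library. S100a4 fills 53.2 to 55.9% of the 2D bars and 18.7 to 28.5% of the organoid bars, and S100b is visible only in the organoid bars, at 3.38 to 19.7%.

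Of the other 8 S100 genes in the tables, only S100a3 had enough counts to be tested. S100a3 (gene ID 114216), known from hair cuticle, had 40, 46 and 42 counts in 2D culture and 186, 708 and 694 counts in organoid 1, 2 and 3. Its level went from 1.31 ± 0.0906 to 28.8 ± 16.2 CPM (4.45 ± 0.58, edgeR adjusted p = 0.00318), with no overlap, and it was called under all 14 settings. In the RefSeq gene order S100a3 stands next to S100a4, with S100a5 and S100a6 after it, so neighbours on the chromosome moved in opposite directions. S100a5, S100a7a, S100a8, S100a9, S100a14 and S100z had at most 10 counts in any library. S100a8 and S100a9, the calprotectin genes of neutrophils, had at most 3 and 6 counts. S100vp had 41 counts in organoid 2, 0 in organoid 1 and organoid 3, and at most 5 in 2D culture. S100pbp, which is no S100 protein but binds one, was also called (1.003 ± 0.298, edgeR adjusted p = 0.0465), and lost the call without 2D culture 1, 2 and 3 (adjusted p = 0.173, 0.171 and 0.157), under scaling by total library size (0.40, adjusted p = 0.408), with no low-count filter (0.0659) and with limma-voom weighted per group (0.0501). Among 11 myeloid markers, Adgre1 and Tyrobp had 0 counts in organoids and Ptprc was at 0.067 ± 0.0713 CPM. The list summed to 7.83 to 10.7 CPM in 2D culture and 21.6 to 65.9 in organoids, mostly from Cd14, Csf1r and Lyz2, and Mpo and Lyz2 were the 2 called, both higher. Lyz2 lost its call without 2D culture 1, 2 and 3 and without organoid 1 (adjusted p = 0.074, 0.129, 0.105 and 0.0589), and Mpo without 2D culture 1 and 3 (0.0501 and 0.0511).

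Partners of S100 proteins moved in both directions. Of the 12 tested partners of S100a10, S100a11 and S100a6, 1 rose and 2 fell, with a median log2 fold change of -0.01. That is 3 of 12, near the 27.5% called over all genes. Anxa2, the annexin that pairs with S100a10, differed little, at 1619, 1536 and 1572 CPM in 2D culture 1, 2 and 3 against 1538, 1678 and 1379 CPM in organoid 1, 2 and 3 (-0.04 ± 0.21, edgeR adjusted p = 0.908). The count ratio of S100a10 to Anxa2 was 0.232, 0.289 and 0.265 in 2D culture 1, 2 and 3, against 0.0951, 0.319 and 0.136 in organoid 1, 2 and 3. Organoid 2 again stood above the 2D libraries and the other organoids below (2-sided exact permutation p = 0.4). Anxa1, the partner of S100a11, stood at 896 ± 47.9 and 454 ± 151 CPM and missed the threshold (-0.98 ± 0.30, adjusted p = 0.0535). Leaving out organoid 1 or organoid 2 brought it past the threshold (adjusted p = 0.0486 and 0.01), as did scaling by total library size (-1.63, adjusted p = 0.00497), DESeq2 and limma-voom. The ratio of S100a11 to Anxa1 spanned 0.454 to 2.60 in organoids and 0.971 to 1.30 in 2D culture (exact permutation p = 0.6).

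For S100a6 the known partners are Anxa11 and Cacybp, the latter named as the calcyclin-binding protein. Anxa11 was at 268, 67.7 and 202 CPM in organoid 1, 2 and 3 against 89.9 ± 4.80 in 2D culture and did not pass (0.995 ± 0.465, edgeR adjusted p = 0.158), but passed without organoid 2 (1.43, adjusted p = 0.00253). The count ratio of S100a6 to Anxa11 ran from 3.28 to 5.27 in 2D culture and from 0.243 to 2.01 in organoids, a log2 difference of -3.04 (2-sided exact permutation p = 0.1, the smallest possible; 3 ratios were computed, and the p adjusted over them was 0.3). Cacybp fell from 151 ± 4.03 to 68.8 ± 31.5 CPM (-1.13 ± 0.33, adjusted p = 0.0442). It lost its call without 2D culture 1, 2 and 3 (adjusted p = 0.138, 0.123 and 0.13) and without organoid 1 and organoid 2 (0.118 and 0.0611). Plat, the plasminogen activator that S100a10 binds at the cell surface, fell by 2.31 on the log2 scale (adjusted p = 0.00574). Dlc1, which S100a10 binds, rose by 0.98 ± 0.30 (adjusted p = 0.0493) and lost its call without any 1 of the 6 libraries except organoid 2 (adjusted p = 0.0863 to 0.179), under scaling by total library size (0.32, adjusted p = 0.35) and with no low-count filter (0.0675). Ahnak, the scaffold of the S100a10 complex, did not pass (-0.34 ± 0.25, adjusted p = 0.357) except with total library size (-0.99, adjusted p = 0.01).

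Of the 9 partners of S100a4, 3 fell and 1 rose (median -0.27), where 12.6% of all genes were lower and 14.9% higher. Non-muscle myosin heavy chain Myh9, its best known target, was at 509, 475 and 534 CPM in 2D culture and 167, 154 and 86.9 CPM in organoid 1, 2 and 3. The groups were well apart (-1.90 ± 0.29, edgeR adjusted p = 0.00574). Myh10 fell by 2.32 on the log2 scale (adjusted p = 0.00317) and Septin7 by 0.78 (adjusted p = 0.0257), and both had fractional counts in all 6 libraries. Septin7 lost its call without 2D culture 1, 2 and 3 (adjusted p = 0.11 to 0.12). Ppfibp1, the liprin that S100a4 binds, rose from 87.4 ± 0.864 to 190 ± 36.9 CPM (1.12 ± 0.21, adjusted p = 0.0102). Its call was lost without 2D culture 1, 2 and 3 (adjusted p = 0.0729, 0.0682 and 0.074) and with total library size (0.52, adjusted p = 0.162).

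Of the 13 tested partners of S100a1 and S100b, 2 rose and 2 fell (median -0.49), which is 4 of 13 and near the 27.5% called over all genes. Ryr3, a calcium release channel of the kind S100a1 binds, was at 2.21, 3.88 and 2.85 CPM in 2D culture and 39.0, 98.8 and 24.6 CPM in organoid 1, 2 and 3. The lowest organoid lay well above the 2D libraries (4.18 ± 0.61, edgeR adjusted p = 0.00466). Of the related channels in the list, Ryr1 had 3, 46 and 0 counts and Ryr2 12, 0 and 217 counts in organoid 1, 2 and 3. Both had at most 5 counts in any 2D library and were not tested. Pgm1, phosphoglucomutase, rose by 1.48 ± 0.33 (adjusted p = 0.0183). Pln, the phospholamban gene that restrains the calcium pump, fell by 5.23 on the log2 scale (adjusted p = 0.0236). It had 6, 1 and 0 counts in organoid 1, 2 and 3, so the size of its fall is uncertain. Capzb, a subunit of the actin capping protein that S100b binds, fell by 1.16 (adjusted p = 0.0211). The genes of its other subunit, Capza1 and Capza2, did not pass (-0.39 ± 0.51 and -0.68 ± 0.42, adjusted p = 0.606 and 0.269). Pgm1, Pln and Capzb lost their calls without 2D culture 1, 2 and 3 (adjusted p = 0.0826 to 0.102). Atp2a2, the calcium pump itself, did not pass (-0.39 ± 0.26, adjusted p = 0.307). Muscle markers, listed because muscle makes S100a1, summed to 4.76 to 6.05 CPM in 2D culture and 4.37 to 33.2 CPM in organoids. Des was at 0.728 ± 0.147 CPM in 2D culture and 16.4, 0.0601 and 6.39 CPM in organoid 1, 2 and 3. It did not pass (edgeR adjusted p = 0.133). Myh1, the largest part of the 2D sum, averaged 3.11 CPM there and 0.805 in organoids (adjusted p = 0.178). Ckm, untested, lay above the 2D range in every organoid. Actn2 and Myh6 reached 3.30 and 3.35 CPM in organoid 1 and had 0 counts in the other organoids. Myod1 and Tnnt2 had 0 counts in organoids, and Tnnt3 was called higher (adjusted p = 0.0424). Tnnt3 lost its call without 2D culture 1, 2 and 3 (adjusted p = 0.175 to 0.208), under scaling by total library size (0.113) and with no low-count filter (0.0674). Their part in the S100a1 level was not tested.

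The release partners of S100a13 were few. Fgf1 was at 3.04 ± 0.722 CPM in 2D culture and 7.54 ± 2.08 in organoids, with no overlap. It missed the threshold (1.31 ± 0.51, edgeR adjusted p = 0.0988), and passed both with DESeq2 (adjusted p = 0.0237) and in the fit without organoid 2 (adjusted p = 0.0253). Sphk1, a sphingosine kinase of the same release complex, fell from 104 ± 6.78 to 15.4 ± 4.29 CPM (-2.76 ± 0.27, adjusted p = 0.00114). Il1a had 0 counts in every library.

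Among the 8 tested surface receptors of S100 proteins, 3 rose and 3 fell (median 0.36), where 27.5% of all genes were called. Ager, the gene of the receptor RAGE, had at most 0.764 CPM in 2D culture and was at 0.589, 5.89 and 0 CPM in organoid 1, 2 and 3. Its level in organoids rested on organoid 2, and it did not pass (2.57 ± 1.84, edgeR adjusted p = 0.338). Tlr4 was low in both groups, at 2.89 ± 0.739 CPM in 2D culture and 2.83, 0.18 and 0 CPM in organoid 1, 2 and 3 (adjusted p = 0.495), and passed without organoid 1 (-5.00, adjusted p = 0.0413). Fgfr1, reported as a receptor for S100b on muscle cells, rose from 102 ± 7.76 to 487 ± 144 CPM (2.25 ± 0.27, adjusted p = 0.00253). Bsg, the basigin that binds S100a9, rose by 2.42 ± 0.65 (adjusted p = 0.035), and so did Scarb1, a lipoprotein receptor (1.55 ± 0.23, adjusted p = 0.00467). Alcam, an adhesion molecule of the immunoglobulin family, fell by 5.47 on the log2 scale (adjusted p = 0.0162). It had 34, 8 and 0 counts in organoid 1, 2 and 3, so the size of its fall is uncertain. The related Mcam fell by 3.23 (adjusted p = 0.0331) and Nptn, neuroplastin, fell by 0.84 (adjusted p = 0.0231). Bsg, Alcam, Mcam and Nptn lost their calls without 2D culture 1, 2 and 3 (adjusted p = 0.066 to 0.129), Bsg and Mcam also without organoid 1 (adjusted p = 0.0533 and 0.088), and Bsg without organoid 3 (adjusted p = 0.0528).

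**Figure D5:**
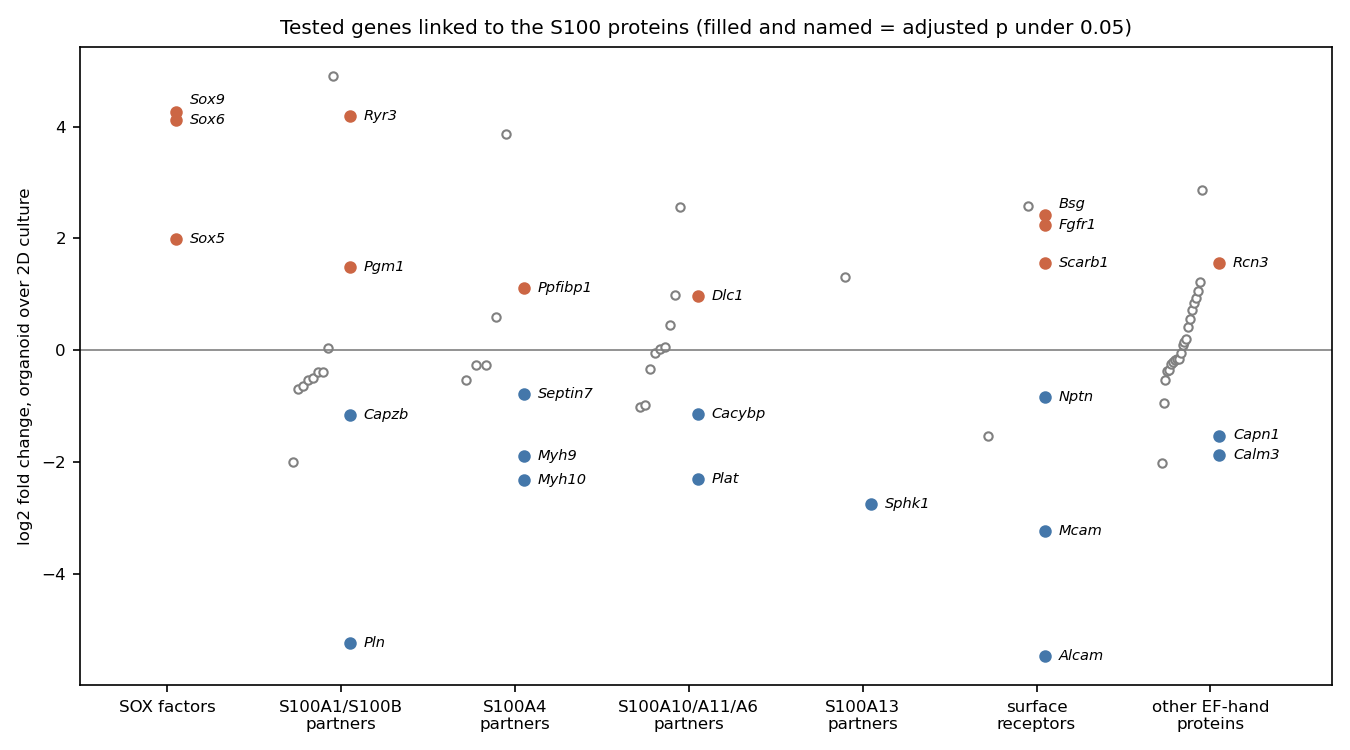
Log2 fold change of organoid over 2D culture (vertical axis) for the tested genes of 7 lists (SOX factors, partners of S100 proteins, surface receptors and other EF-hand proteins), with filled and named symbols for adjusted p under 0.05 and open ones for the rest. All 3 SOX factors lie above 0, the other 6 lists shown hold genes on both sides, and 22 of 25 other EF-hand genes are open.

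Other EF-hand proteins served as a comparison for the family. The test called 3 of 25, Rcn3 higher and Calm3 and Capn1 lower (median -0.05), where 27.5% of all genes were called. Calm2, a calmodulin gene, was at 899 ± 29.8 CPM in 2D culture and 810 ± 170 CPM in organoids and did not pass the test (edgeR adjusted p = 0.679), although it did under scaling by total library size (-0.77, adjusted p = 0.0425). Calm3, which also encodes calmodulin, fell from 51.1 ± 1.81 CPM to 16.4, 7.63 and 17.9 CPM in organoid 1, 2 and 3 (-1.87 ± 0.35, adjusted p = 0.0113). Rcn3, a calcium-binding protein of the secretory pathway, rose from 408 ± 8.44 to 1206 ± 304 CPM (1.56 ± 0.26, adjusted p = 0.00745), and the calpain gene Capn1 fell by 1.53 on the log2 scale (adjusted p = 0.0144). All 3 lost their calls without 2D culture 1, 2 and 3 (adjusted p = 0.051 to 0.0971).

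The genes whose log2 CPM tracked a member most closely over the 6 libraries were taken from 8817 or 8818 genes of at least 10 CPM. All these genes share the same libraries and the difference between the groups, so Pearson's r over 6 libraries is a description only. S100b was closest to Tpi1, a glycolytic enzyme (r = 0.999), S100a1 to Fxyd1, a regulator of the sodium pump (0.9991), and S100a4 to Slc52a2, a riboflavin transporter (0.9975), followed by Tmsb4x, the actin-binding thymosin beta 4 (0.9974). S100a6 was closest to Prrx1, a mesenchymal transcription factor (0.9981), S100a10 to Fkbp2 (0.9989) and S100a11 to Bnc2 (0.9968). S100a13 had the weakest match, with Klhdc10 (0.9906), and S100a16 was closest to Zfp287 (0.9953).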

How the data were processed

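Messenger RNA was sequenced in 3 libraries of 2D culture and 3 of condylar organoids, grouped by their titles. Per the labels' protocols, Trizol served to extract RNA, and DNBSEQ to read the mRNA libraries. Bowtie2, DESeq2, HISAT, HISAT2 and RSEM are named in the submitters' processing notes, with no version or role. Build, annotation and strandedness of the counting are not stated there.

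The authors deposited 1 table of estimated counts per gene for each library, without normalisation. These were rounded before testing. Genes were kept by filterByExpr (minimum count 10), scaled by TMM and compared with edgeR 4.0.16 (R 4.3.3) by the robust quasi-likelihood test with Benjamini-Hochberg adjustment over 13052 genes. SE was taken as the size of the log2 fold change divided by the root of F. Shares and ratios used unrounded counts. Replicates differed beyond sampling noise (chi-square at least 8.80 times its degrees of freedom). A count of 0 allows up to 3 counts, 0.0917 to 0.18 CPM, counting error only.

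Alternatives were total library size, DESeq2 size factors, no filter, DESeq2 1.42.0, limma-voom (limma 3.58.1) with and without group weights, no robust step, a replicate term and each library left out. The members, the lists and the motifs were chosen with earlier results of these data known. Named genes are the members, fixed partners, and up to 3 called genes per list by size of change, with the top one of the opposite direction. Dip2a, Prmt2 and Chtop are neighbours. Other S100 genes, other calls of a list (Capzb, Septin7, Fgfr1, Scarb1, Nptn) and marker genes outside this rule were named after their values were seen. RefSeq tables (GRCr8) gave gene order and promoters, and 17720 of 17954 gene IDs matched.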

Additional observations from a re-analysis of the deposited data

How the results depend on the processing

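S100b, S100a4 and S100a6 kept their direction and call under all 14 settings, and S100a1 kept its direction with 8 of 14 calls. S100 members called higher numbered 2 in the main analysis, 1 with total library size, 1 without a low-count filter, 1 with the replicate block and 1 to 3 when a library was left out; those called lower numbered 2, 3 with total library size, DESeq2, limma-voom with or without weights and the replicate block, and 2 to 4 when a library was left out. Over all genes, 1944 were higher and 1650 lower, against 1063 and 3529 with total library size and 2533 lower with limma-voom, and leaving out a library gave 703 to 2747 higher and 399 to 2574 lower. Partner, receptor and other EF-hand genes gave 8 higher and 13 lower, against 14 higher with DESeq2, 30 lower with total library size, and 3 to 21 higher and 4 to 17 lower when a library was left out. The replicate block gave 2730 calls against 3594, and S100a1 lost its call (adjusted p = 0.14) while S100a11 gained one (adjusted p = 0.0365). Calls of Dlc1, Nptn, Septin7, S100pbp and Tnnt3 were also lost with the block (adjusted p = 0.068, 0.0623, 0.0779, 0.103 and 0.173). Same-numbered libraries deviated together only weakly (r = 0.0606, 0.187 and 0.0207), and 3 of 6 correlated best with their own number, so the numbers were not taken as pairs. Shares and ratios of counts were recomputed only with rounded counts and with each library left out. They moved by less than 1 SD. Leaving out 1 of 3 libraries cannot move a group mean by 1 SD of that group, so this is no test of stability. Scaling, filter and tool do not enter the shares and ratios. Shares per coding length were not run, since no protein table was used here. Why the counts changed was not tested. Of 756 comparisons of a single gene with its main value, 644 stayed called or stayed uncalled, 91 lost the call and 21 gained one. Among genes called in either fit, 0 reversed direction. Genes called in neither fit could change direction within the 644, as S100a16 did. S100a1 and S100a13 rest on 58 to 219 counts per library, the fewest of the members, so counting error weighs most on them.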
